A study of Mus musculus with 2 samples.

Results

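The immediate-early AP-1 and Egr genes Fos, Fosb, Fosl2, Jun, Junb, Jund, Egr1, Atf3, Ier2 and Ier3 were followed across the myeloid cells of mouse colorectal polyps. They are 10 of the 32285 genes in the count matrices, and all 10 were detected in both libraries. They were chosen by name with earlier results of these data known, as were the other gene lists below. Shares of all genes set beside their counts thus give a scale and are no test. CD11b+ and CD11c+ cells had been sorted from polyps of C57BL6/J mice 16 weeks after an injection of azoxymethane (AOM), a carcinogen, which was followed by 3 rounds of dextran sulfate sodium (DSS) at 1%. One library pooled the cells of 5 wild-type (WT) mice, and the other those of 4 mice that lacked Clec7a in every tissue (Clec7a-/-). The labels give an age of 26 weeks for both groups, whereas the methods give 6 to 7 weeks of age at AOM. Clec7a encodes Dectin-1, a receptor for beta-glucans on myeloid cells, and was not analysed here.

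Immediate-early genes are transcribed within minutes of a stimulus, before new protein is made, because the kinases and factors that switch them on are already in the cell. Fos and Jun family proteins pair through leucine zippers to form AP-1, which binds DNA at short palindromes. Egr1 is a zinc-finger factor of the same early wave, Atf3 is a bZIP factor induced by stress, and Ier2 and Ier3 encode small proteins that are not bZIP factors. In myeloid cells the group follows signals from cytokine receptors, Toll-like receptors and Dectin-1, and warm enzymatic dissociation of a tissue can also induce it. Here the tissue was shaken for 40 min with EDTA and for 120 min with collagenase, both at 37 °C, before sorting, in both groups.

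The genes lie on several chromosomes of the GRCm38 assembly. Fos is at chr12:85473890-85477273 on the plus strand and Jun at chr4:95049034-95052222 on the minus strand. Atf3 is at chr1:191170296-191218039 on the minus strand and Ier3 at chr17:35821684-35822923 on the plus strand. Junb (chr8:84974484-84978718), Jund (chr8:70698949-70700616) and Ier2 (chr8:84661331-84662852) share a chromosome, while Fosb is at chr7:19302696-19310051 and Fosl2 at chr5:32135801-32157842. RefSeq promoter windows of the GRCm38.p6 build were at hand for 8 of the 10 genes, and the 250 bases before each start were searched on both strands for 4 elements through which this family is known to be switched on. The cAMP response element core TGACGT was found in 2 of the 8 windows and in 6.47% of all 32851 windows. The element TGACNTCA, the kind known from the Jun promoter, was found in 1 of the 8 and in 7.49% of all. The AP-1 element TGANTCA was in 0 of the 8 and in 6.75% of all, and the CArG box, the site of serum response factor, in 0 of the 8 and in 1.47% of all. Sites more than 250 bases before the start, and those of genes without a window, Egr1 among them, were not searched. An absence here thus does not mean that a gene lacks the element. A TGACNTCA element with G at its free position holds TGACGT and would count for both. The 3 windows with a match are shown 5′ to 3′ because they differ in which element they hold, with the matching letters in capitals.

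Fos: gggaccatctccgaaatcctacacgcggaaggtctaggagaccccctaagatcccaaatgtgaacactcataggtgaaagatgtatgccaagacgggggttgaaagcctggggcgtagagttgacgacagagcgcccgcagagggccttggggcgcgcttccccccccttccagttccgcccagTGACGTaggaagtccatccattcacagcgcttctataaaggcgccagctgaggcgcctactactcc
Jun: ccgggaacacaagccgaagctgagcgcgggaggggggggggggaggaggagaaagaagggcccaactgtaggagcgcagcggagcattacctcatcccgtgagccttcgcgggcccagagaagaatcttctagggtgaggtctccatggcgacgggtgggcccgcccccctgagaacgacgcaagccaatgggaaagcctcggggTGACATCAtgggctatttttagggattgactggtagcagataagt
Atf3: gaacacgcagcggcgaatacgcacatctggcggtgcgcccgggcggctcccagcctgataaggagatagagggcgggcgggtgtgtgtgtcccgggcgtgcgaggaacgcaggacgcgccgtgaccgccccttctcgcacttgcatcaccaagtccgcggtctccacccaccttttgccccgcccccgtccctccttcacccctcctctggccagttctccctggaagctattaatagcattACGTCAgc

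The Fos window is chr12:85473640-85473889 (plus strand), with its match starting 66 bases before the start. The Jun window is chr4:95052223-95052472 (minus strand), with its match starting 45 bases before the start. The Atf3 window is chr1:191183334-191183583 (minus strand) and lies inside the annotated gene, before the start of a shorter transcript, with its match on the reverse strand 8 bases before the start. These matches describe the sequence only.

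The WT library held 3467 cell barcodes and 15869215 UMIs, and the Clec7a-/- library 3080 barcodes and 11808230 UMIs. A UMI marks 1 captured RNA molecule, counted at its 3′ end, so levels were not divided by gene length and are given as CPM, a gene's UMIs per 1000000 UMIs of the cells named. The limits of the methods, 200 to 4000 genes per cell and no more than 5% of UMIs from mitochondrial genes, left 2696 WT cells with a median of 3412.5 UMIs and 1999 Clec7a-/- cells with a median of 2671. The libraries shared 17 barcodes. Clusters were built without the genes described here and were named from marker genes. Neutrophil-like cells were 555 in the WT and 364 in the Clec7a-/- library, monocyte-like cells 732 and 491, macrophage-like cells 526 and 297, and dendritic cell (DC)-like cells 361 and 565. All 15 neutrophil markers were detected in the neutrophil-like cells of both libraries, but also in the monocyte-like and DC-like cells of both. The classes were named from such markers, so their detection is no separate support for a name. With 1 library per genotype no test was possible. Values carry exact 95% intervals for counting error only, which leave out the differences between mice and between preparations, and every comparison below is of 2 libraries.

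The 10 genes together were highest in neutrophil-like cells in both libraries. Their summed level was 10140 CPM in WT cells (95% Poisson interval 9986 to 10296) and 13226 in Clec7a-/- cells (12891 to 13567). Monocyte-like cells followed among the 4 myeloid classes with 4222 and 4445, then macrophage-like cells with 2926 and 3025. DC-like cells had the lowest level, 1949 and 2090, which was 5.20-fold and 6.33-fold below the neutrophil-like level. The 4 classes stood in the same order in both libraries and no neighbours in that order overlapped in their counting intervals.

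**Figure D1:**
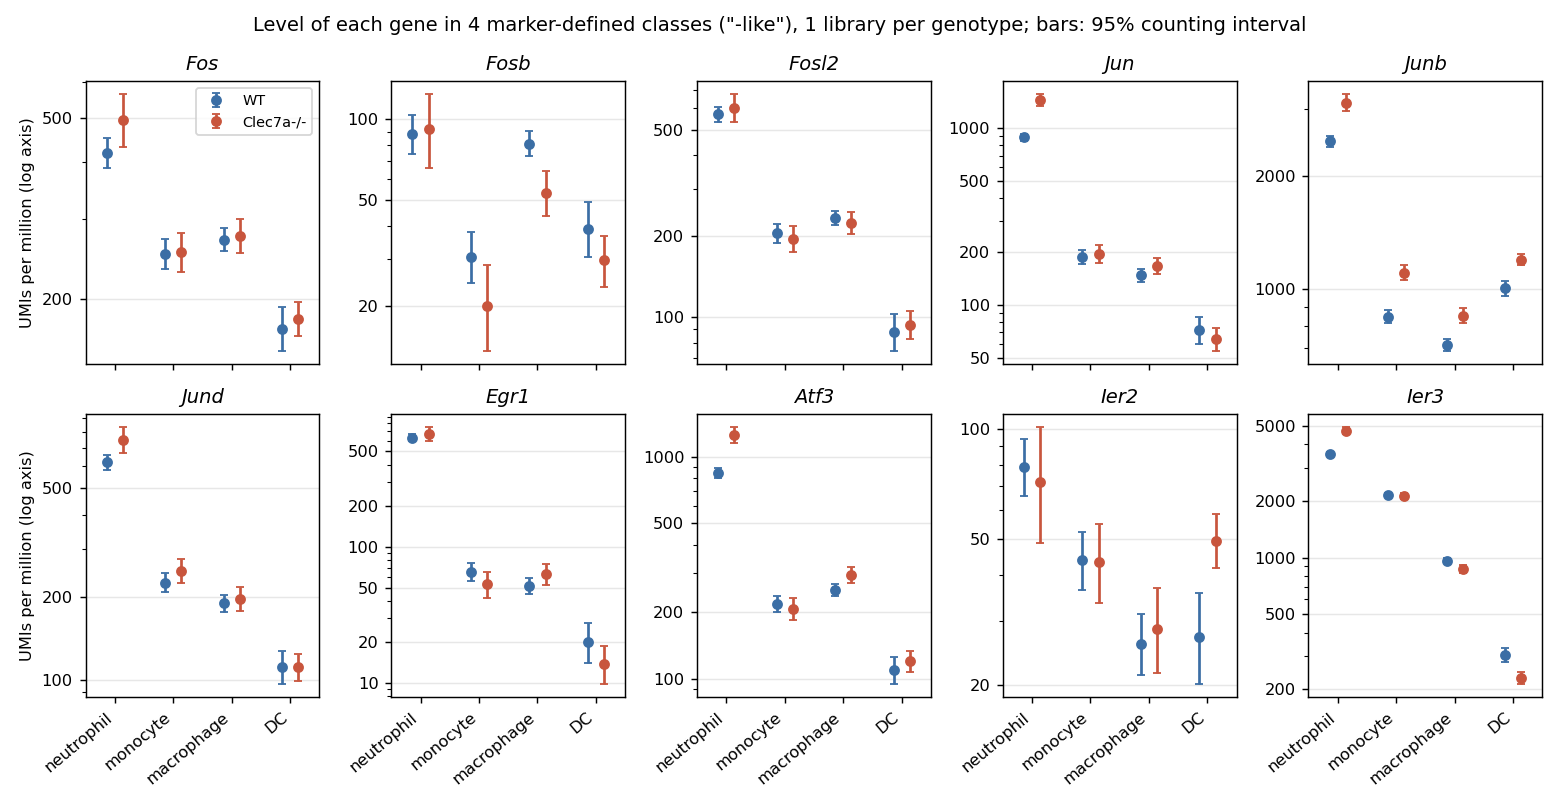
Each panel plots 1 gene, with its level in CPM on a log axis against 4 marker-defined cell classes, for the WT library (blue) and the Clec7a-/- library (red). Points are sums over all cells of a class and bars are 95% counting intervals. Egr1 runs from 629.8 and 672 CPM in neutrophil-like cells to 20.1 and 13.8 in DC-like cells.

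Egr1 separated the classes most widely. Its level in neutrophil-like cells was 629.8 CPM in WT cells (1023 UMIs) and 672 in Clec7a-/- cells (300 UMIs). In DC-like cells it was 20.1 from 37 UMIs and 13.8 from 39 UMIs. The neutrophil-like level was thus 31.4-fold and 48.7-fold higher. In between, monocyte-like cells had 65.5 and 53.0 CPM and macrophage-like cells 51.9 and 63.0. The order of these last classes differed between the libraries, and their Egr1 intervals overlapped in both. The DC-like cluster with Itgae, Clec9a and Xcr1 among its leading genes, which are known from cross-presenting DCs, had 9.80 and 12.2 CPM of Egr1, from 6 and 13 UMIs. Free RNA taken up with the cells can give counts of this size in cells that do not express a gene.

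Among the Jun family, Jun followed Egr1 most closely. Jun was at 886 and 1447 CPM in neutrophil-like cells, the WT value first, at 186 and 194 in monocyte-like cells, at 147 and 166 in macrophage-like cells, and at 72.2 and 63.7 in DC-like cells. Jund, which is expressed in many resting cells, ran from 622 and 750.4 in neutrophil-like cells to 110.7 and 110.8 in DC-like cells. Junb, which can oppose Jun on some promoters, was flatter. It had 2463 and 3121 CPM in neutrophil-like cells but 1006 and 1198 in DC-like cells, against 847 and 1108 in monocyte-like and 712 and 853 in macrophage-like cells. The DC-like intervals lay above those of both classes in the WT library and touched the monocyte-like one in the Clec7a-/- library. There the exact interval of the ratio still put DC-like above monocyte-like cells. DC-like cells thus had the least Jun, Jund and Egr1 of the 4 classes, but not the least Junb. Of all UMIs of the 10 genes, Junb made up 51.6% in WT and 57.3% in Clec7a-/- DC-like cells, against 24.3% and 23.6% in neutrophil-like cells.

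Of the Fos family, Fos was at 419 and 495 CPM in neutrophil-like cells, at 251 and 253 in monocyte-like cells, at 270.2 and 275 in macrophage-like cells and at 172 and 181 in DC-like cells. Fosl2, which encodes Fra-2, had 569 and 603 in neutrophil-like cells, 205 and 195 in monocyte-like, 233 and 224 in macrophage-like and 87.4 and 93.5 in DC-like cells. For both genes the monocyte-like and macrophage-like intervals overlapped in both libraries. By the exact interval of the ratio, Fosl2 was still higher in macrophage-like than in monocyte-like cells of the WT library. Fosb was sparse, with 725 UMIs in the WT and 284 in the Clec7a-/- library over all kept cells. It was the gene for which macrophage-like cells came closest to neutrophil-like cells, with 81.2 and 53.0 against 88.0 and 91.8 CPM, and in the WT library these 2 classes overlapped in their intervals. Monocyte-like cells had the least Fosb, 30.6 and 20.0, with intervals that overlapped those of DC-like cells (39.1 and 29.7).

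Atf3, which represses many inflammatory genes, was at 842 and 1248 CPM in neutrophil-like cells and at 109 and 120.0 in DC-like cells, with 218 and 207 in monocyte-like and 251 and 294 in macrophage-like cells. Ier3, which is known to modulate cell survival and NF-kappaB signalling, had the highest level of the 10 in neutrophil-like, monocyte-like and macrophage-like cells, although in Clec7a-/- macrophage-like cells its interval overlapped that of Junb. Its levels were 3543 and 4727 in neutrophil-like, 2150 and 2122 in monocyte-like, 965 and 871 in macrophage-like and 305 and 229.8 in DC-like cells. Ier3 alone accounted for 50.9% and 47.7% of the UMIs of the 10 genes in monocyte-like cells, against 15.7% and 10.996% in DC-like cells. Ier2 was sparse, at 78.8 and 71.7 in neutrophil-like cells, and in the WT library its DC-like level of 27.1 and macrophage-like level of 26.0 overlapped in their intervals.

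A count of at least 2-fold against all other kept cells in both libraries was made for each class. In neutrophil-like cells 7 of the 10 genes, Fosl2, Jun, Junb, Jund, Egr1, Atf3 and Ier3, were that much higher, as were 10.0% of the 8470 genes with at least 100 UMIs. None of the 10 was 2-fold lower there, where 55.9% of all genes were. The median log2 ratio of neutrophil-like over other cells was -1.62 (WT) and -1.54 (Clec7a-/-) over all genes and 1.41 and 1.88 over the 10 genes. TMM factors from edgeR, added after the data were seen, put the centre of the genes at -0.93 and -0.69, and relative to that all 10 genes passed. The share of all genes passing relative to that centre was not counted, and the 10.0% does not apply to it. In DC-like cells 6 genes were at least 2-fold lower, Fosl2, Jun, Jund, Egr1, Atf3 and Ier3, against 17.3% of all genes, and 0 were 2-fold higher, against 10.3%. In monocyte-like cells only Fosb was 2-fold lower (8.48% of all genes) and 0 were higher (1.58%). In macrophage-like cells 0 were higher (7.52%) and 0 lower (9.57%).

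Neutrophil-like cells came from 2 clusters that the libraries filled unequally. One, led by Ngp, Ly6g and Retnlg, held 459 WT and 40 Clec7a-/- cells. The other, with Mdk and Dhx40 among its leading genes, held 96 WT and 324 Clec7a-/- cells and had a median of 1148 UMIs per cell. It took its name from 3 markers among its 50 leading genes, Mdk, Dhx40 and Csf3r. That is the fewest the naming rule allows, against 9 markers in the first cluster. None of the 3 was among those 9, and without Mdk and Dhx40 the second cluster would have stayed unnamed. Most Clec7a-/- neutrophil-like cells, 324 of 364, thus carry a name with a thin basis. The summed level of the 10 genes was high in each, at 10232 and 11791 CPM in the first and 9476 and 13573 in the second. A cluster led by Chil3, Serpinb2 and Saa3, 273 WT and 61 Clec7a-/- cells, had 7040 and 8035. It stayed unnamed because 5 neutrophil markers, among them G0s2 and S100a9, were in its 50 leading genes but a monocyte marker, Chil3, and no neutrophil marker, was in its first 10. Neutrophil markers summed to 18998 and 8277 CPM in all unnamed cells. The small epithelial-like cluster, 143 and 52 cells, had 6457 and 6322, with the heat shock genes Hspa1a and Hspa1b beside Krt8 and Epcam among its 10 leading genes, and with neutrophil markers at 8972 and 5895 CPM.

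The share of cells in which a gene was detected followed the levels. To make cells of different depth comparable, each was thinned to 1000 UMIs, which left out 11 WT and 157 Clec7a-/- neutrophil-like cells and 26 and 33 DC-like cells that were shallower. Egr1 was then found in 41.4% of 544 WT neutrophil-like cells (exact binomial interval 37.2 to 45.6) and 44.9% of 207 Clec7a-/- cells (38.03 to 51.98). In DC-like cells it was found in 0.597% of 335 cells (0.0724 to 2.14) and 1.32% of 532 cells (0.531 to 2.69). Jun was found in 53.5% and 63.3% of neutrophil-like and in 5.07% and 7.14% of DC-like cells, and Atf3 in 52.6% and 60.9% against 6.87% and 9.21%. Junb was again the exception, found in 56.1% and 64.7% of DC-like cells. Before thinning, the median depth of the cells counted was 2733.5 and 1439 UMIs in neutrophil-like and 4622 and 4419.5 in DC-like cells.

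Most neutrophil-like cells carried several of the 10 genes at once. At 1000 UMIs they had a mean of 4.51 genes in WT and 4.95 in Clec7a-/- cells, against 2.29 and 2.43 in monocyte-like, 2.03 and 2.11 in macrophage-like and 1.28 and 1.41 in DC-like cells. At least 3 genes were found in 93.8% of WT and 94.2% of Clec7a-/- neutrophil-like cells, and in 11.9% and 12.8% of DC-like cells. None of the 10 was found in 0.368% of WT neutrophil-like cells and in 0 of 207 Clec7a-/- ones, where the exact upper bound is 1.77%, against 21.8% and 16.5% of DC-like cells. Unthinned, at least 3 genes were found in 98.4% and 93.4% of neutrophil-like and 57.1% and 60.0% of DC-like cells. Across the cells of a class the genes were only weakly correlated, with a median Pearson correlation over the 45 pairs between -0.017 and 0.049 in the 4 classes and 2 libraries, which in counts this sparse is no finding.

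**Figure D2:**
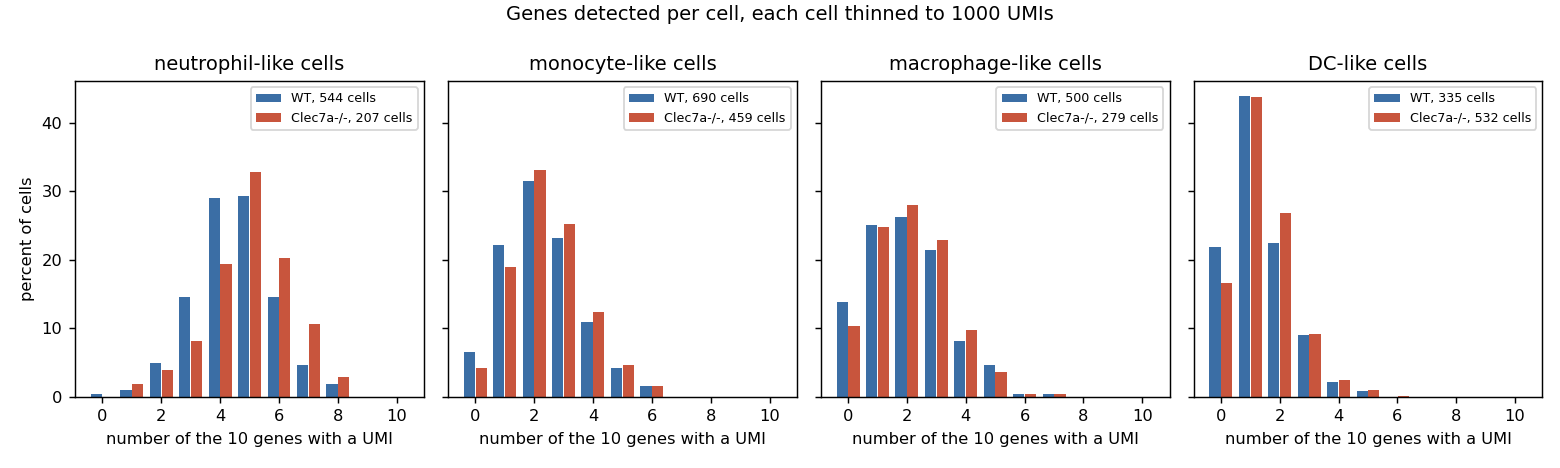
Percent of cells (vertical axis) by how many of the 10 genes had at least 1 UMI (horizontal axis), after each cell was thinned to 1000 UMIs, for 4 classes in the WT library (blue) and the Clec7a-/- library (red). The mean was 4.51 and 4.95 genes in neutrophil-like cells and 1.28 and 1.41 in DC-like cells.

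Between the libraries, the sum of the 10 genes over all kept cells was lower in the Clec7a-/- one. It went from 4475 CPM in WT cells to 3697 in Clec7a-/- cells, with a log2 ratio (Clec7a-/- over WT) of -0.28 (95% conditional interval -0.30 to -0.25). The median of all genes was 0.13. Beyond counting error 8 of the 10 genes were lower, against 17.4% of all genes, led by Egr1 with 155 and 89.3 CPM (-0.80), Fosb with 59.0 and 37.6 (-0.65) and Ier3 with 1682 and 1164 (-0.53). Only Junb was higher beyond counting error, with 1127 and 1196 (0.086), against 35.9% of all genes, but with TMM its ratio was -0.081. The interval of Ier2 spanned 0. An interval narrows as UMIs rise, so genes with more UMIs are called at smaller ratios. The 10 genes had from 508 and 346 UMIs (Ier2) to 20665 and 8802 (Ier3), whereas all genes counted needed only 100. Shares of all genes beyond counting error, here and in the classes below, are thus not matched for UMIs. None of the 10 passed 2-fold in either direction, where 2.42% of all genes were that much higher and 1.71% lower. Among cells of at least 1000 UMIs, a limit added after the data were seen, Egr1 did, with a log2 ratio of -1.01. When each cell's share was averaged instead of summing UMIs, the ratio of the sum turned to 0.037, and those of Fos (0.053), Jun (0.10), Jund (0.0049) and Atf3 (0.18) turned with it.

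Within the 4 classes the direction of the sum in CPM was the opposite. In neutrophil-like cells it was higher in the Clec7a-/- library by 0.38 on the log2 scale (0.34 to 0.43), in monocyte-like cells by 0.074 (0.031 to 0.12), in macrophage-like cells by 0.048 (0.0033 to 0.092) and in DC-like cells by 0.10 (0.041 to 0.16). The mean of the 4 ratios was 0.15. Outside these classes, unnamed cells were lower in the Clec7a-/- library, with 6617 and 5263 CPM (-0.33, -0.40 to -0.26). Of their clusters, the one led by Chil3 was higher (0.19) and the one led by Pclaf lower (-0.43). Single clusters did not all follow their class. The macrophage-like cluster led by Igf1 and Colec12 was lower (-0.10), the one led by C6 and Ccl8 higher (0.094), and the monocyte-like cluster led by Ly6c2 and Timp1 spanned 0 (-0.022). With TMM scaling the neutrophil-like ratio was 0.19 and the DC-like one 0.066, both still above 0 beyond counting error, while the monocyte-like one (0.0049) and the macrophage-like one (0.034, -0.010 to 0.079) spanned 0. With each gene given the same weight the monocyte-like ratio was -0.046 and the DC-like one -0.011. The classes with the most and the least of these genes took different shares of the libraries. Neutrophil-like cells gave 13.2% of all kept UMIs in the WT and 5.91% in the Clec7a-/- library, and unnamed cells, most of them of the cluster led by Chil3, 10.9% and 4.59%, whereas DC-like cells gave 14.998% and 37.4%. Neutrophil-like cells held 29.97% and 21.1% of the UMIs of the 10 genes, and DC-like cells 6.53% and 21.1%. When the class levels of both libraries were weighted by the WT make-up, the sum came to 4475 for WT and 4840 for Clec7a-/- cells, which is 0.11 on the log2 scale, and it was 0.10 with the Clec7a-/- make-up. The Egr1 ratio, -0.80 over all kept cells, was then -0.038 and -0.068.

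**Figure D3:**
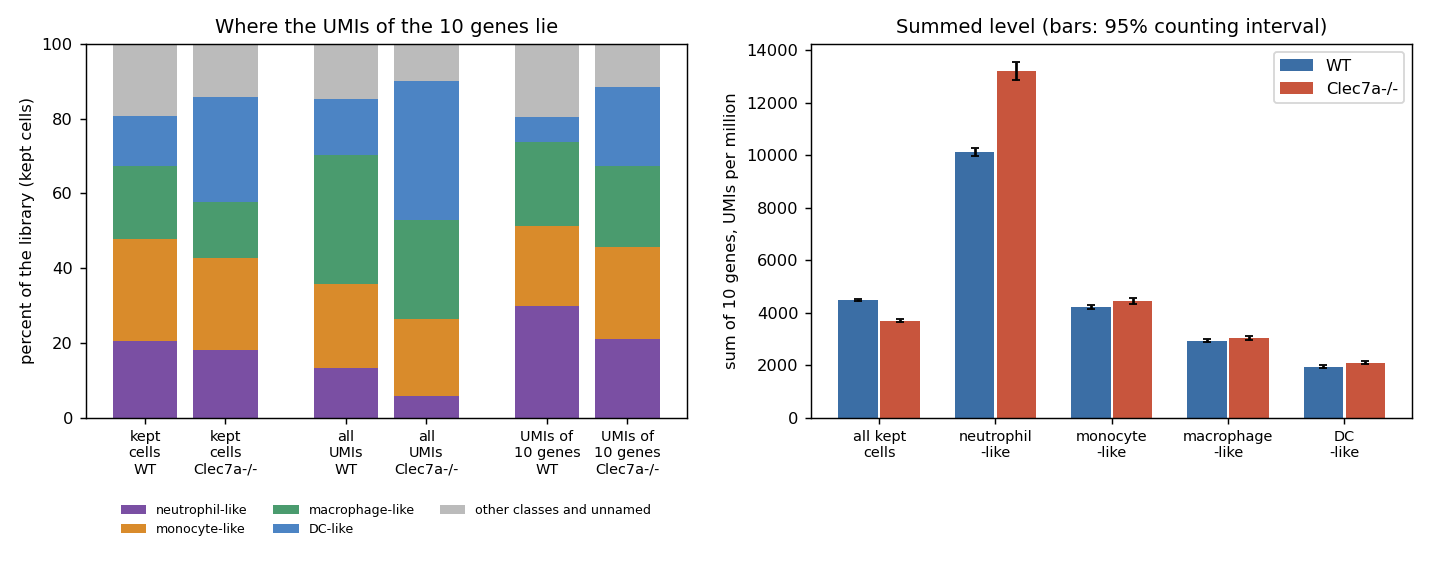
Left, the percent of kept cells, of all their UMIs and of the UMIs of the 10 genes that each class gave in each library. Right, the summed level of the 10 genes in CPM over all kept cells and in each class, with 95% counting intervals, where the Clec7a-/- bar is the lower one over all kept cells and the higher one in each of the 4 classes, in monocyte-like and macrophage-like cells within counting error once TMM is applied.

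In neutrophil-like cells 6 genes were higher in the Clec7a-/- library beyond counting error, Fos, Jun, Junb, Jund, Atf3 and Ier3, against 21.6% of 2024 genes, and 0 were lower, against 18.4%. Jun differed most, with 886 and 1447 CPM (log2 ratio 0.71, 0.57 to 0.84), followed by Atf3 with 842 and 1248 (0.57, 0.42 to 0.71) and Ier3 with 3543 and 4727 (0.42, 0.34 to 0.49). Egr1 differed by 0.095, within counting error (-0.097 to 0.28). None passed 2-fold, which 2.52% of all genes did upwards and 1.88% downwards. Jun and Atf3 were higher in each of the 2 neutrophil-like clusters, by 0.79 and 0.80 in the Ngp-led one and by 0.43 and 0.63 in the other. Fos, Junb, Jund and Ier3 were higher beyond counting error only in the second. In the Ngp-led cluster, with its 40 Clec7a-/- cells, their intervals spanned 0, with ratios of 0.041 for Fos, 0.18 for Junb, -0.44 for Jund and 0.12 for Ier3. With TMM, which centres the bulk of the genes and gave a shift of 0.20 in this class, Fos (0.044, -0.18 to 0.26) and Jund (0.075, -0.11 to 0.25) also spanned 0 in the class as a whole.

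These ratios are of shares of a cell's RNA, and neutrophil-like cells of the Clec7a-/- library were shallower, with a median of 1077.5 UMIs against 2711. The 10 genes together gave 29.7 UMIs per WT neutrophil-like cell and 16.2 per Clec7a-/- cell, so the direction per cell was the opposite of that in CPM. The gap in depth was uneven over the classes, with medians of 4229 and 4100 UMIs in DC-like and 7911 and 6133 in macrophage-like cells. Within the Ngp-led neutrophil-like cluster the 10 genes gave 31.8 and 25.6 UMIs per cell, and within the other 19.6 and 15.1. Both gaps were smaller than that of the class, whose clusters the libraries filled unequally. Fewer captured molecules and less RNA per cell cannot be told apart. The summed level of the 15 neutrophil markers in the class was 50796 CPM in WT and 36752 in Clec7a-/- cells. In the same cells the 12 macrophage markers, 10 of them detected in each library, summed to 773 and 883, and the 12 DC markers, 10 and 7 of them detected, to 44.9 and 172. Their part in the result was not tested.

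**Figure D4:**
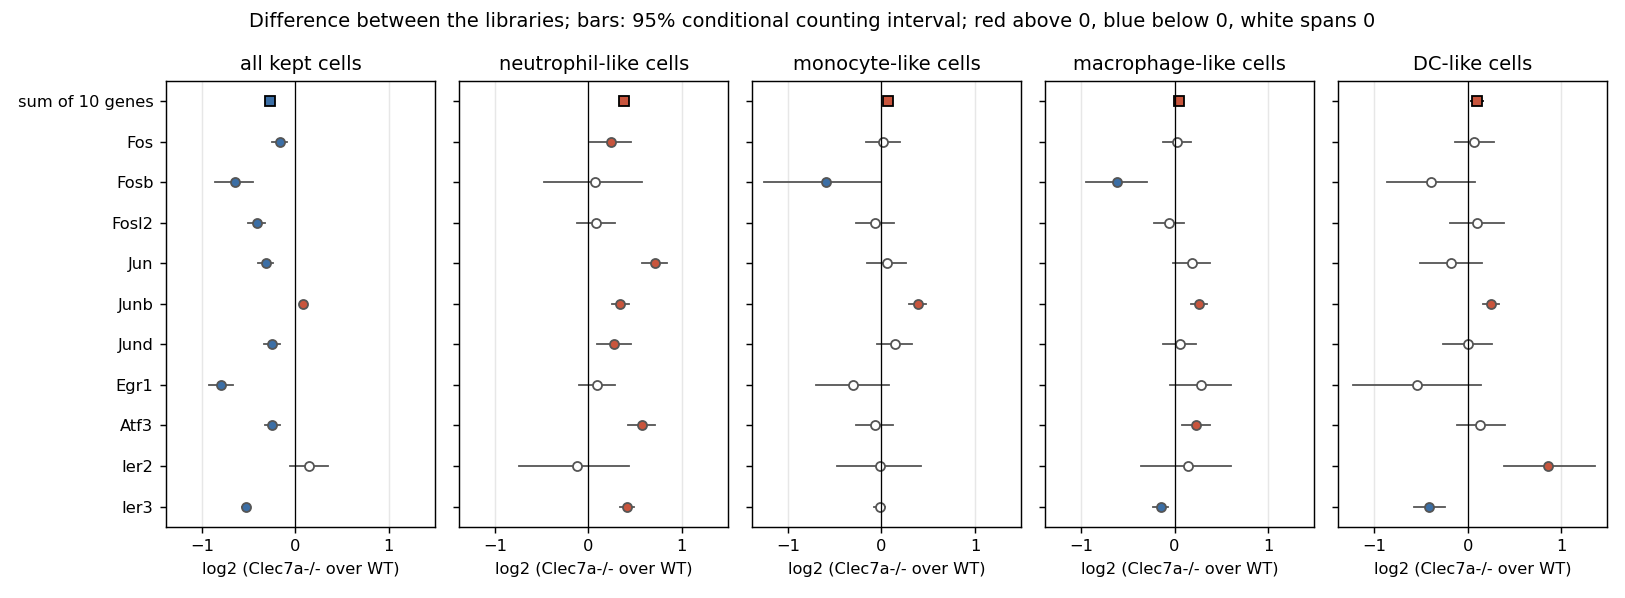
Log2 ratio of the Clec7a-/- over the WT library (horizontal axis) for the sum and each of the 10 genes (rows), over all kept cells and in 4 classes. Bars are 95% conditional counting intervals, and red symbols lie above 0, blue below and white span it. Most genes are left of 0 over all kept cells, and 6 are right of 0 beyond counting error in neutrophil-like cells, 2 of which, Fos and Jund, span 0 with TMM.

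In the other classes fewer genes differed. Junb was higher in the Clec7a-/- library beyond counting error in each of the 4 classes, with log2 ratios of 0.34 in neutrophil-like, 0.39 in monocyte-like, 0.26 in macrophage-like and 0.25 in DC-like cells, though in the DC-like cluster with Clec9a its interval spanned 0 (0.11). In monocyte-like cells it was the only one higher (13.9% of all genes), and Fosb, with 30.6 and 20.0 CPM (-0.59, -1.25 to -0.0008, from 85 and 31 UMIs), the only one lower (11.5%), though with TMM Ier3 was lower there too (-0.088). In macrophage-like cells Junb and Atf3 (0.23) were higher (9.73%), and Fosb (-0.61) and Ier3 (-0.15) were lower (11.6%). In the macrophage-like cluster led by Igf1 and Colec12, Fosb was lower past 2-fold (-1.73, from 153 and 18 UMIs) and Atf3 spanned 0 (-0.055). In the one led by C6 and Ccl8, Atf3 was higher (0.59) and Fosb spanned 0 (-0.25). In DC-like cells Junb and Ier2 were higher, of 9 genes with at least 100 UMIs (13.7% of all genes), and Ier3 was lower (13.1%). Ier2 went from 27.1 to 49.6 CPM between the WT and Clec7a-/- DC-like cells (0.86, 0.39 to 1.37, from 50 and 140 UMIs), and Ier3 from 305 to 229.8 (-0.41, -0.57 to -0.24). Ier3 was lower in the DC-like clusters led by Fscn1 (-0.69) and by Klrd1 (-0.34), and higher in the one with Clec9a (0.41, 0.013 to 0.82). None of the 10 passed 2-fold in these classes as a whole, and shares of all genes were not counted for single clusters. Over all genes, 0.256% were 2-fold higher and 0.811% lower in monocyte-like cells, 0.225% and 0.502% in macrophage-like cells, and 0.431% and 0.678% in DC-like cells. Neutrophil markers summed to 4824 and 3062 CPM in monocyte-like, 2258 and 1675 in macrophage-like and 2154 and 1319 in DC-like cells, always less in the Clec7a-/- library. Such sums can hold free or mixed RNA and also transcripts of the cells themselves. Of these markers, Mmp9 was at least 2-fold higher in macrophage-like cells than in the rest in both libraries. In monocyte-like cells Mmp9 was at 153 and 345 CPM. The part of free RNA in these ratios was not tested.

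Other immediate-early genes were counted in the same way. Of 29 such genes with at least 100 UMIs, 18 were at least 2-fold higher in neutrophil-like cells than in the rest in both libraries and 3, Nr4a2, Klf4 and Myc, were 2-fold lower. Over all genes, 10.0% were that much higher there and 55.9% lower. Nr4a2 and Nr4a3, nuclear receptors of the same early wave, and Dusp5, a phosphatase of ERK, were the 3 that were at least 2-fold higher in DC-like cells, where 8 were lower. The count of higher genes is near the share over all genes, of which 10.3% were higher there and 17.3% lower. Nr4a3 was above the rest by 3.18 and 3.21 on the log2 scale in DC-like cells and Nr4a2 by 3.33 and 3.00, whereas Egr1 was below it by -3.14 and -3.26. Egr1 and these Nr4a genes were thus not at one common level in DC-like cells. The median over the 29 genes was 1.34 and 1.41 in neutrophil-like and -0.57 and -0.42 in DC-like cells.

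**Figure D5:**
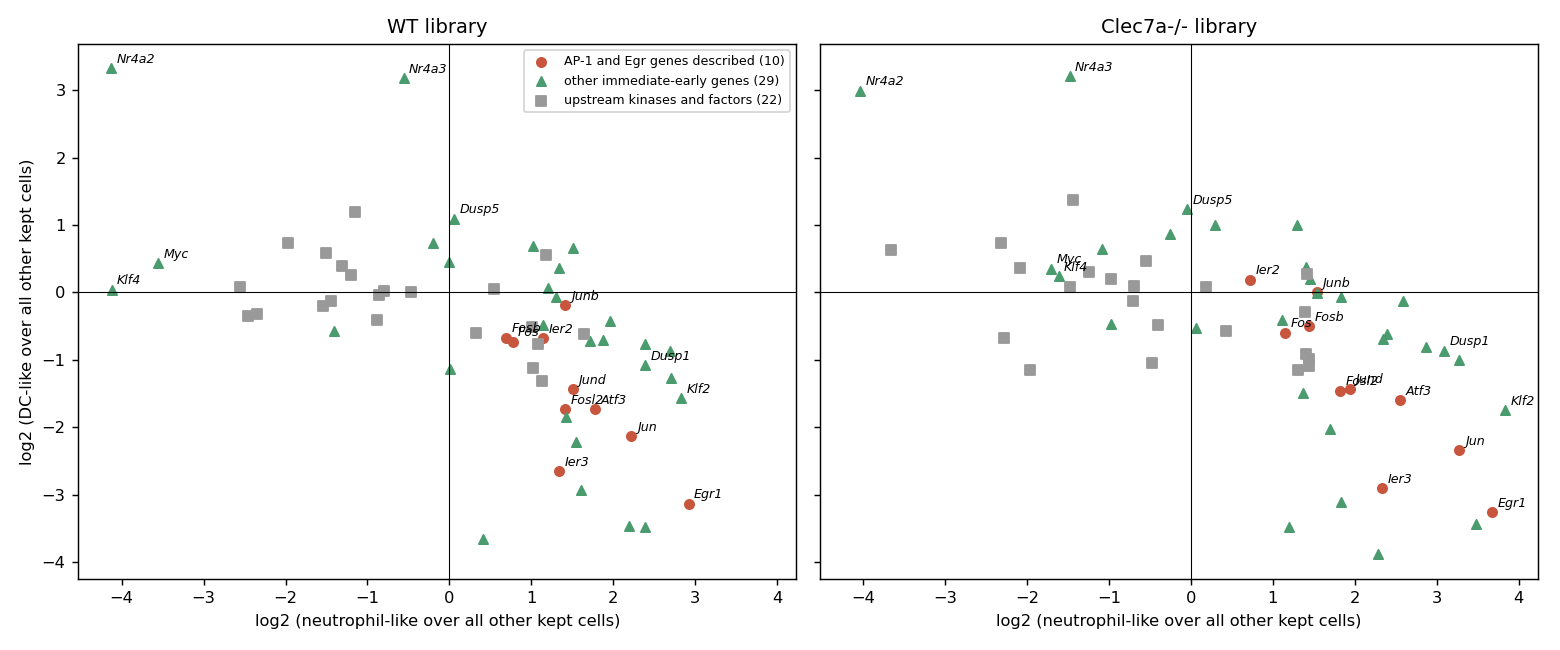
Log2 ratio of the DC-like class (vertical axis) against that of the neutrophil-like class (horizontal axis), each over all other kept cells, in the WT (left) and Clec7a-/- (right) libraries. Red circles are the 10 AP-1 and Egr genes, green triangles 29 other immediate-early genes and grey squares 22 upstream kinases and factors, and Egr1 and Nr4a2 lie near opposite corners.

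Of 22 upstream kinases and factors, 5 were at least 2-fold higher in neutrophil-like cells, Map2k4, Map3k8, Syk, Map2k3 and Mapkapk2, and 7 were 2-fold lower, where 10.0% and 55.9% of all genes were. Their medians of -0.87 and -0.63 lay above those of all genes, -1.62 and -1.54, and below those of the 10 early genes. Syk carries the Dectin-1 signal, and Mapkapk2 acts below p38. Of 14 other AP-1 and related bZIP genes 6 were higher there and 4 lower. Fosl1, the Fra-1 gene, was the only one of these 14 that passed 2-fold between the libraries over all kept cells, with 26.8 and 9.39 CPM (-1.50), and it was also lower in neutrophil-like cells (-1.05, -1.91 to -0.35). Of 29 other immediate-early genes only Dusp6, an ERK phosphatase, did so, with 100.8 and 46.0 (-1.13). Nr4a2 fell just short of 2-fold in the other direction, with 165 and 330 (0.9999), and Myc had 9.44 and 17.5 (0.89). Over all genes, 1.71% were 2-fold lower and 2.42% higher over all kept cells. The Egr corepressors Nab2 (-0.45) and Nab1 (-0.26) did not pass 2-fold.

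Of 10 genes with known AP-1 sites, 3 were at least 2-fold lower in the Clec7a-/- library over all kept cells and 0 higher. Over all genes, 1.71% were that much lower and 2.42% higher. The 3 lower ones were Tnf with 278 and 108 CPM (-1.37), Ptgs2, the cyclooxygenase-2 gene, with 346 and 162 (-1.09), and Hmox1 with 15610 and 7426 (-1.07). In neutrophil-like cells, where Jun and Atf3 were higher, Ptgs2 was at 285 and 284 (0.0013) and Tnf at 847 and 538 (-0.65). Ccl2 was the 1 gene of 7 that passed 2-fold there, with 37.6 and 134 (1.84), from few UMIs. Over all genes, 2.52% did so upwards and 1.88% downwards in this class. In DC-like cells 4 of 6 were 2-fold lower, against 0.678% of all genes, with Tnf at 39.6 and 12.7 (-1.63) and Ptgs2 at 172 and 68.3 (-1.33). DC-like cells had little of these genes. In both libraries 9 of the 10, Tnf, Ptgs2 and Hmox1 among them, were at least 2-fold lower there than in the rest (17.3% of all genes). The part of free RNA in these DC-like ratios was not tested. Of the 7 such genes with at least 100 UMIs in neutrophil-like cells, 3 were above 0, among them Thbs1 with 4415 and 6396 (0.53).

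Values that can move with cell handling were set beside the early genes. Of 10 heat shock genes, 0 were at least 2-fold higher and 4 lower in neutrophil-like cells than in the rest, against 10.0% and 55.9% of all genes. Between the libraries Hspa1a was higher in Clec7a-/- macrophage-like cells, with 143 and 359 CPM (1.33), and Hspa1b lower in Clec7a-/- neutrophil-like (-1.16) and DC-like cells (-1.21). Cells with at most 2.5% mitochondrial UMIs had 7161 and 6984 CPM of the 10 genes, and those with 2.5 to 5% had 3126 and 3039. The median mitochondrial share was 1.20% and 1.64% in neutrophil-like and 3.54% and 3.75% in DC-like cells, so it moved with the classes, and the part of handling in the class levels was not tested.

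Over the 8 groups of 4 classes in 2 libraries, the 10 genes ran together to different degrees. Jun and Jund had the highest Pearson correlation of log2 levels (r = 0.996) and Fosb and Ier2 the lowest (r = 0.24). Outside the lists, the genes most like the sum among 7974 were Sephs2, Lfng, Vps54, Il6ra and Qtrt1, with r from 0.992 to 0.998. The gene most like Egr1 was Btbd19 (r = 0.997), that most like Junb was Zfp36 (r = 0.984) and that most like Atf3 was Mafk (r = 0.997). The 8 groups share 2 libraries and their free RNA, and the neutrophil-like level was the highest of the 4 classes for each of the 10 genes, though for Fosb and Ier2 not beyond counting error in both libraries.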

How the data were processed

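For each library the authors deposited a matrix of UMI counts, whole numbers without normalization. The submitters' processing notes name Cell Ranger 2.1.1 and mm10, the methods a SeekOne MM 3′ kit, and no role of each is given in the sources used here. Cells were kept as in the methods (200 to 4000 genes, at most 5% mitochondrial UMIs). No doublets were removed, since Scrublet marked only 3 and 7 cells. The cells were grouped into 15 clusters with Seurat 5.3.0 in R 4.3.3 (1965 variable features, 20 components, resolution 0.8), without listed and sex-linked genes among the features. A cluster took the class with the most markers among its 50 leading genes by fold if these were at least 3, no other class had as many, and no other class had more among the 10 leading genes. Proliferating cells were left unnamed. Levels are summed UMIs in CPM and ratios carry 0.5 UMI as pseudocount, with a minimum of 100 UMIs in both libraries together. Thinning used random seed 1. Intervals are exact (Poisson, conditional, Clopper-Pearson). Only the conditional intervals and the 2-fold rule were run on simulated counts. Those counts were Poisson by construction and lack the spread between cells, so the run checks the calculation only. Tables used Python 3.11.15, numpy 2.4.6, scipy 1.17.1 and pandas 2.3.3, plots matplotlib 3.10.9 and TMM factors edgeR 4.0.16. Promoter windows are from RefSeq and gene positions from GENCODE M21. The members and lists were chosen with earlier results of these data known. Named genes were all 10 members, at most 3 per other list by the library ratio, the genes most like the members, leading genes of clusters, and lists of 5 or fewer passing genes named after their values were seen. The alternatives tried are in the closing section.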

Additional observations from a re-analysis of the deposited data

Results flagged for a closer look

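Ier3 differed between the libraries in opposite directions in different cell classes, each beyond counting error. Its log2 ratio of the Clec7a-/- over the WT library was 0.42 in neutrophil-like cells, -0.15 in macrophage-like cells and -0.41 in DC-like cells, where 1 of 3 clusters went the other way (0.41). In the Ngp-led neutrophil-like cluster its interval spanned 0 (0.12), and in the other, with the thinly based name, the ratio was 0.60. With TMM the 3 class ratios were 0.22, -0.16 and -0.44. With 1 library per genotype the difference between the classes was not tested. No other of the 10 genes, and not their sum, was beyond counting error in opposite directions in 2 of the 4 classes. Single clusters were not part of this rule. Fos was lower in the monocyte-like cluster led by Ccl24 (-0.36) and higher in the one led by Ly6c2 and Timp1 (0.33). Egr1 was higher in the macrophage-like cluster led by C6 and Ccl8 (0.52). In the DC-like cluster led by Fscn1 it was lower (-1.67, from 17 and 8 UMIs).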

How the results depend on the processing

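The 7 genes at least 2-fold higher in neutrophil-like cells (10 with TMM factors) and the 6 lower in DC-like cells were counted again under 14 alternatives each, and the counts ranged from 7 to 10 and stayed at 6. Shares of all genes under these alternatives were not counted. The classes themselves changed in size. Neutrophil-like cells, 555 and 364 above, were 560 and 370 with 10 components but 1004 and 481 with 30. They were 1012 and 485 with all variable features and 1192 and 598 by marker levels without clusters. DC-like cells, 361 and 565 above, were 218 and 382 without the 5% of highest Scrublet scores and 558 and 1024 without a mitochondrial limit. The neutrophil-like ratio of the sum stayed above 0, from 0.19 to 0.42 over 15 alternatives. The limit of 1000 UMIs and TMM between classes were chosen after seeing the data. The log2 ratio of the sum over all kept cells, -0.28, was -0.33 with up to 10% mitochondrial UMIs, -0.32 without that limit, -0.33 with 500 to 6000 genes, -0.44 with TMM, -0.31 with each gene weighted equally and -0.36 in cells of at least 1000 UMIs. As a mean over cells it was 0.037, and the ratios of Fos (0.053), Jun (0.10), Jund (0.0049) and Atf3 (0.18) turned with it, while Junb turned to -0.081 with TMM. The mean over 4 classes, 0.15, was 0.21 over cells, 0.073 with TMM and 0.062 with equal weights, where the monocyte-like ratio was -0.046 and the DC-like one -0.011. Genes past 2-fold between libraries over all kept cells were 0, 2 at 1.5-fold (Egr1 and Fosb) and 1 (Egr1) in cells of at least 1000 UMIs. The shares of all genes at 1.5-fold and in those deeper cells were not counted, so these counts have no scale. The share of WT cells with at least 3 of the genes, 51.2%, was 47.1% with up to 10% mitochondrial UMIs, 46.2% without that limit, 72.1% at 2000 UMIs and 82.4% unthinned. The causes were not tested beyond what each setting does by construction. No paired analysis was possible because each genotype has 1 library. With 1 library each, differences between mice, pools or preparations cannot be told apart from genotype.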

Other observations

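Cells above the mitochondrial limit were not part of the comparisons. Those with more than 10% mitochondrial UMIs were 213 in the WT and 281 in the Clec7a-/- library. Their Egr1 was at 301 and 206 CPM, above the 60.3 and 48.6 of cells with 2.5 to 5%. It was not above the 345 and 293 of cells with at most 2.5%. The sum of the 10 genes was 3547 and 3378, against 3126 and 3039 at 2.5 to 5% and 7161 and 6984 at most 2.5%. Ier3 was lower than in both, at 514 and 468 against 1099 and 865 at 2.5 to 5% and 2845 and 2660 at most 2.5%.

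The epithelial-like cluster had Egr1 at 544 and 605 CPM, near the neutrophil-like levels. Its neutrophil markers summed to 8972 and 5895 CPM, its macrophage markers to 1146 and 439, and its epithelial markers to 1731 and 7271, so in the WT library the 15 neutrophil markers together were above the 7 epithelial ones, against the name of the cluster. Its Jun level was lower in the Clec7a-/- library, at 1064 and 605 (log2 ratio -0.81, -1.29 to -0.36), where in neutrophil-like cells Jun was higher, and its Atf3 level was higher, at 579 and 866 (0.58, 0.12 to 1.03). The cells were few, 143 and 52, with medians of 998 and 814 UMIs, and the part of the markers that moved between the libraries in these ratios was not tested.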
